A study of Mus musculus with 460 samples.

Results

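Matrix metalloproteinases and their tissue inhibitors were followed through 460 single cells with the label of cancer-associated fibroblasts (CAFs), the stromal cells of a tumour that make and remodel its matrix. The genes were taken by symbol: Mmp2, Mmp3, Mmp11, Mmp14, Mmp19, Mmp23, Timp1, Timp2 and Timp3, which are 9 of the 48440 genes in the table and 9 of its 27 Mmp and Timp genes. The cells came from mice with lung adenocarcinoma, and all 460 form 1 group with no control. The source is written "tCAFs", without an expansion, and neither the animals nor the ages, cultures or sorting of the cells were named. All cells were therefore treated as 1 sample, no p-value was computed, and every interval below is an exact 95% interval for counting error only.

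Matrix metalloproteinases are zinc enzymes that cut collagens, proteoglycans and other extracellular proteins, and they are made as inactive proenzymes. MMP14 sits in the plasma membrane and activates proMMP2, a step in which TIMP2 acts as the bridge between both enzymes at low concentration and as an inhibitor at high concentration. TIMP3 is the inhibitor that binds to the matrix itself, and TIMP1 is a soluble inhibitor that is often inducible. In lung and tumour stroma, fibroblasts are a main source of MMP2, MMP14 and TIMPs, while MMP3 (stromelysin 1) is made after inflammatory or AP-1 stimulation.

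Total molecular barcode counts per cell lay between 25029 and 240496, with a median of 88701. Cells were split by which of a pair of lineage genes had more counts: 44.1% of the cells (39.5 to 48.8%) had more Rgs5, a pericyte gene, than Pdgfra, a fibroblast receptor gene, and 55.9% did not. No cell had a tie, 70 cells lay within 2-fold of equal counts, and the nearest cells on both sides differed by 1 count. The median total was 76944 counts in the Rgs5-above-Pdgfra cells and 96654 counts in the rest. The summed pericyte markers had a median of 10582 CPM (counts scaled to 1000000 per cell) in the Rgs5-above-Pdgfra cells and 1153 CPM in the rest. The summed fibroblast markers had a median of 5175 CPM in the Rgs5-above-Pdgfra cells and 12433 CPM in the rest, and all 8 markers of both lists had counts in both sets. Rgs5 and Pdgfra are each in 1 of these lists and made the split. The pooled sum of 7 leukocyte markers was 410 CPM in the Rgs5-above-Pdgfra cells and 154.5 CPM in the rest, with a median per cell of 76.2 CPM in the Rgs5-above-Pdgfra cells and 69.3 CPM in the rest. The pooled epithelial sum was 1143 CPM in the Rgs5-above-Pdgfra cells and 722 CPM in the rest, the mesothelial sum 124.6 CPM in the Rgs5-above-Pdgfra cells and 49.4 CPM in the rest, and the endothelial sum 76.6 CPM in the Rgs5-above-Pdgfra cells and 60.9 CPM in the rest. The median epithelial sum per cell was 623 CPM in the Rgs5-above-Pdgfra cells and 496 CPM in the rest. The median mesothelial sum was 0 CPM in the Rgs5-above-Pdgfra cells and 8.73 CPM in the rest, and the endothelial one 0 CPM in both. The highest mesothelial sum, 7434 CPM, was in 1 Rgs5-above-Pdgfra cell. Of these lists Ptprc, Cd68, Lyz2, Tyrobp, Krt8, Cdh1, Upk3b, Krt19 and Kdr were at least 2-fold higher in the Rgs5-above-Pdgfra cells. For Upk3b, 1 cell held 501 of the 580 counts. The part of these markers in the folds between both sets was not tested. In 2 runs of neighbouring columns, together 27.6% of cells, Sftpc, a surfactant gene of alveolar epithelium, was nearly absent (median 0 CPM), against a median of 416.1 CPM in the other 72.4%. The labels give no batch for these columns, so results are also given within each kind.

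The start regions of 4 genes are shown: Mmp3 and Mmp10, counted in few cells, and Mmp14 and Timp1, counted in many. Of the 9 genes, 7 had an entry in the RefSeq promoter table (GRCm38.p6), without Mmp2 and Mmp19. The 250 bases before the annotated start are printed 5′ to 3′ on the gene's own strand, and capitals mark the motifs described next.
Mmp3 (chr9:7445572-7445821, plus strand): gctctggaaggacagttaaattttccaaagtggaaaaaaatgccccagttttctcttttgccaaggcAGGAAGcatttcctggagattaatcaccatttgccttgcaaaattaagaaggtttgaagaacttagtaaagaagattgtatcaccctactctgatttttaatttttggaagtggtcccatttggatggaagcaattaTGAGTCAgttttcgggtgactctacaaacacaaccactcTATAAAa
Mmp10 (chr9:7502092-7502341, plus strand): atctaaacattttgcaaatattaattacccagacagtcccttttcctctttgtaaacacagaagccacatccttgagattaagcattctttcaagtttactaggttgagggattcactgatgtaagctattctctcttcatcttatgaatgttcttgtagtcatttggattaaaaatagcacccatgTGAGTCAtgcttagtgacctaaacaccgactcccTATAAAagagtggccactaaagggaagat
Mmp14 (chr14:54431348-54431597, plus strand): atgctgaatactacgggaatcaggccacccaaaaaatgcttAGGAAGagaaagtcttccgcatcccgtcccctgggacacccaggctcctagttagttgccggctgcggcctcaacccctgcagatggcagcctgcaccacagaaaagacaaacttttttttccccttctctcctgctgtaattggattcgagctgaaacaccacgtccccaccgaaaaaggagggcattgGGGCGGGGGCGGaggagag
Timp1 (chrX:20869916-20870165, plus strand): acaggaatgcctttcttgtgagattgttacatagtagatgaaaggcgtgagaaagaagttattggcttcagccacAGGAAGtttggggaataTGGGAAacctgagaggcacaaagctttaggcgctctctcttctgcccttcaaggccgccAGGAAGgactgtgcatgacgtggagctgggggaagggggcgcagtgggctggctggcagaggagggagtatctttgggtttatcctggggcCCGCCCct

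In these windows 5 motifs were searched on both strands: the AP-1 element TGANTCA, the TATA box TATAAA, the GC box GGGCGG, the ETS or PEA3 element AGGAAG and the RBPJ element TGGGAA. Over all 32851 promoters in the table, 6.75% held the AP-1 letters, 12.4% the TATA box, 32.7% the GC box, 29.5% the ETS letters and 21.6% the RBPJ letters. The Mmp3 window holds AP-1 letters beginning 46 bases before the start, a TATA box at 7 bases and ETS letters farther upstream. The Mmp10 window, that of the stromelysin 2 gene, holds AP-1 letters at 63 bases and a TATA box at 29 bases. The Mmp14 window holds neither, and has a pair of adjoining GC boxes at 19 and 13 bases and ETS letters farther upstream. The Timp1 window has a GC box at 8 bases, a pair of ETS matches, the nearer at 99 bases, and RBPJ letters between them. None of the printed matches overlaps another.

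Mmp3 lies in a cluster of 10 Mmp genes on chromosome 9 (mm10, GENCODE vM21: chr9:7272514-7699585, 427.1 kb). Of these 10, 8 held AP-1 letters, 7 a TATA box and none a GC box. Of the 12 other Mmp and Timp genes with an entry, none held AP-1 letters, 1 held a TATA box (Mmp21) and 9 held a GC box. A match of letters is a description of the sequence and was not tested as a binding site.

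The inhibitors Timp2 and Timp3 and the membrane enzyme Mmp14 had counts in every one of the 460 cells, and Mmp2 had counts in 93.9% of them. The other 5 genes were found in fewer cells: Mmp19 in 75.2% (71.01 to 79.1%), Timp1 in 63.9% (59.3 to 68.3%), Mmp11 in 60.7% (56.02 to 65.1%), Mmp23 in 38.9% (34.4 to 43.5%) and Mmp3 in 15.2% (12.1 to 18.8%). A median of 6 of the 9 genes had a count in a cell, with a range of 4 to 9. With every cell thinned to 56586 counts, these 5 shares were 70.8%, 57.97%, 55.8%, 35.3% and 11.4% after leaving out the 46 shallowest cells. For scale, Pecam1, an endothelial gene, had a count in 16.3% of cells and Ptprc, a leukocyte gene, in 11.3%. The Mmp3 share lies at that level and is not read as expression outside the cells described further on.

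Per kilobase of exon the order of the pooled levels was Timp2 (269.4 CPM per kb), Timp3 (195.95), Mmp14 (125.97), Mmp2 (115.3), Timp1 (54.05), Mmp19 (16.9), Mmp11 (13.3), Mmp3 (10.3) and Mmp23 (8.03 CPM per kb). The counting intervals of neighbours in this order did not overlap, the closest in ratio being Mmp14 (124.6 to 127.4 CPM per kb) and Mmp2 (113.6 to 117.1 CPM per kb). The spread over animals is not known, so the order holds for these libraries only. It also depends on the length scaling, and whether barcode counts grow with exon length is not known from the sources used here. By CPM without that scaling, Timp3 (1596) stood above Timp2 (1049.8) and Mmp19 (59.6) above Timp1 (47.99). Mmp23 (18.8) and Mmp3 (18.5) had overlapping intervals. Together the 6 enzymes had 54265 counts and the 3 inhibitors 114777 counts, 2.12 times as many, a ratio that is not corrected for length.

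The genes differed in how evenly cells carried them. Timp2 (1049.8 CPM pooled) had quartiles of 648 and 1342 CPM around a median of 970 CPM, with a lowest cell at 17.6 CPM and a highest at 4718 CPM. Timp3 (1596 CPM pooled) had a median of 1349 CPM (quartiles 854 and 2093) and Mmp14 (751 CPM pooled) a median of 720 CPM (quartiles 504 and 975). In each of these 3 genes the top 10% of cells held 20.3 to 25.3% of the summed level. Mmp2, gelatinase A, was pooled at 388.8 CPM (382.9 to 394.8) but had a median of 114.1 CPM, quartiles of 33.2 and 417.4 CPM and a highest cell at 4506 CPM. Its top 10% of cells held 50.1% of the level, about as much as all other cells together. Mmp19 (59.6 CPM), an enzyme of basement membrane and matrix proteins, had 37.8% of its level in the top 10%, Timp1 (47.99 CPM) 45.4%, Mmp11 (36.96 CPM; stromelysin 3) 46.5% and Mmp23 (18.8 CPM; a membrane-anchored enzyme) 57.7%. For Mmp3 (18.5 CPM, 17.2 to 19.9) the top 10% held 97.9%. Counting noise is a larger part of this share in the sparse genes, and its size was not tested.

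**Figure D1:**
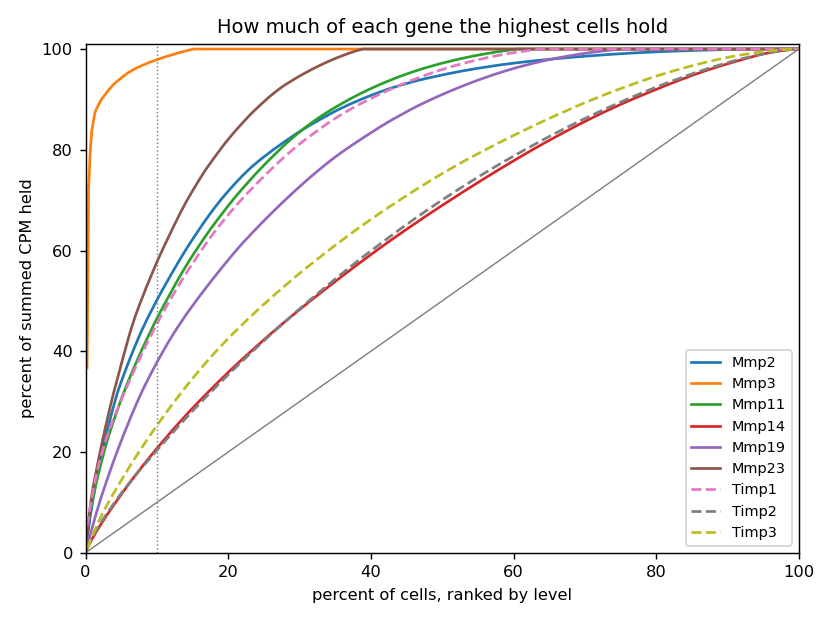
Percent of each gene's summed CPM (y) held by a given percent of cells ranked by their level (x), for 460 cells; the dotted line marks the top 10%. Mmp14, Timp2 and Timp3 run nearest the grey diagonal of an even spread, Mmp2 reaches 50.1% at the top 10% and Mmp3 97.9%.

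The other 18 Mmp and Timp genes added little, since the 9 genes held 96.04% of all Mmp and Timp counts. Mmp9 (gelatinase B, 70.3 CPM) and Mmp28 (epilysin, 21.1 CPM) were the only ones with a count in at least 25% of cells, at 36.5% and 36.3%. Mmp7 and Mmp20 had no count, which allows up to 0.0866 CPM. A few single cells carried much of several others: 1 cell at 4138 CPM held 80.7% of the Mmp13 (collagenase 3) counts, and 1 cell at 1497 CPM held 77.2% of the Mmp12 (macrophage elastase) counts. That Mmp12 cell had 545 CPM of Ptprc and 386.7 CPM of Csf1r, a macrophage receptor gene. For Mmp9, 8 cells over 1000 CPM held 50.7% of the counts, and 1 of the 8 had a Ptprc count. Reck, a membrane-anchored inhibitor of several of these enzymes, stood at 311.8 CPM and in 98.5% of cells.

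Some of these values share reads or ground with other genes. Timp3 lies inside Syn3 on the opposite strand, with 1733 exon bases in common, and Mmp19 shares 789 exon bases with Tmem198b, also opposite. Whether counting used strand is not given in the sources used here, so reads there cannot be assigned with certainty. Of 1752 stretches of 50 bases in Mmp3 transcripts, 140 also occur in Mmp10. None of the other 8 genes shared such a stretch with the chromosome 9 genes or with each other.

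Against the rest, the Rgs5-above-Pdgfra cells had less of 3 enzymes, Mmp2, Mmp3 and Mmp23, and none of the 9 genes was at least 2-fold higher. Mmp14 and the inhibitors stayed within 2-fold. In this comparison 4.67% of the 9573 genes with at least 460 counts were at least 2-fold lower, 3.75% at least 2-fold higher and 8.42% either. The 3 genes include Mmp3, which reached 460 counts only through the 6 Mmp3-high cells described further on. Without those cells 8 of the 9 genes had at least 460 counts, and 2 were lower, Mmp2 and Mmp23 (median log2 fold -0.35). The 9 genes were chosen with earlier results of these data known, so 3 of 9 is not read against these shares. The median log2 fold of the 9 genes was -0.48, against 0.02 for all genes tested. Folds here are pooled CPM in the Rgs5-above-Pdgfra cells over pooled CPM in the rest.

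Mmp2 had 201.6 CPM in the Rgs5-above-Pdgfra cells and 513 CPM in the rest, a fold of 0.393 (0.379 to 0.408). Its median was 49.1 CPM (range 0 to 3174) in the Rgs5-above-Pdgfra cells and 270 CPM (range 0 to 4506) in the rest. The distributions overlapped over nearly their whole range, and the upper quartile of the Rgs5-above-Pdgfra cells, 150.8 CPM, lay under the median of the rest. Of the 46 cells with the most Mmp2, 8 had Rgs5 above Pdgfra and 38 did not.

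Mmp23 had 9.26 CPM in the Rgs5-above-Pdgfra cells and 25.1 CPM in the rest, a fold of 0.369 (0.308 to 0.440). It was counted in 21.2% of the Rgs5-above-Pdgfra cells and 52.9% of the rest, and after thinning in 19.9% of the Rgs5-above-Pdgfra cells and 46.1% of the rest. Its median in the Rgs5-above-Pdgfra cells was 0 CPM.

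Mmp3 had 3.01 CPM in the Rgs5-above-Pdgfra cells and 28.8 CPM in the rest, a fold of 0.105 (0.0771 to 0.139). That difference rested on 6 cells: without the 6 Mmp3-high cells, all of them in the rest, the fold was 1.16 (0.789 to 1.70). The share of cells with an Mmp3 count was 11.8% (24 cells) in the Rgs5-above-Pdgfra cells and 17.9% (46 cells) in the rest. After thinning this share was 9.94% in the Rgs5-above-Pdgfra cells and 12.3% in the rest.

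Mmp19 missed the threshold, with 41.8 CPM in the Rgs5-above-Pdgfra cells and 71.4 CPM in the rest, a fold of 0.586 (0.536 to 0.639). At a threshold of 1.5-fold it made 4 of 9 genes lower, where 9.35% of all genes were lower, 7.47% higher and 16.8% either. Its median was 17.4 CPM in the Rgs5-above-Pdgfra cells and 53.2 CPM in the rest. Mmp11 was at 33.9 CPM in the Rgs5-above-Pdgfra cells and 38.98 CPM in the rest, a fold of 0.870 (0.784 to 0.965). Over all cells, Mmp14 was the only one of the 9 genes with more in the Rgs5-above-Pdgfra cells, at 820 CPM there and 705 CPM in the rest, a fold of 1.16 (1.14 to 1.19). Its median was 762 CPM in the Rgs5-above-Pdgfra cells and 688 CPM in the rest. The enzyme that activates proMMP2 and Mmp2 itself therefore had folds on opposite sides of 1.

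Among the inhibitors, Timp2 had 846 CPM in the Rgs5-above-Pdgfra cells and 1184 CPM in the rest, a fold of 0.715 (0.701 to 0.729), with a median of 728 CPM in the Rgs5-above-Pdgfra cells and 1143 CPM in the rest. Timp3 had 1502 CPM in the Rgs5-above-Pdgfra cells and 1658 CPM in the rest, a fold of 0.906 (0.892 to 0.920). Timp1 had 46.9 CPM in the Rgs5-above-Pdgfra cells and 48.7 CPM in the rest, a fold of 0.964 (0.881 to 1.05). Its share of cells with a count was 52.7% in the Rgs5-above-Pdgfra cells and 72.8% in the rest. After thinning this share was 49.1% in the Rgs5-above-Pdgfra cells and 64.2% in the rest. The highest Timp1 cell, at 1096 CPM, had Rgs5 above Pdgfra, and without it the fold was 0.772.

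**Figure D2:**
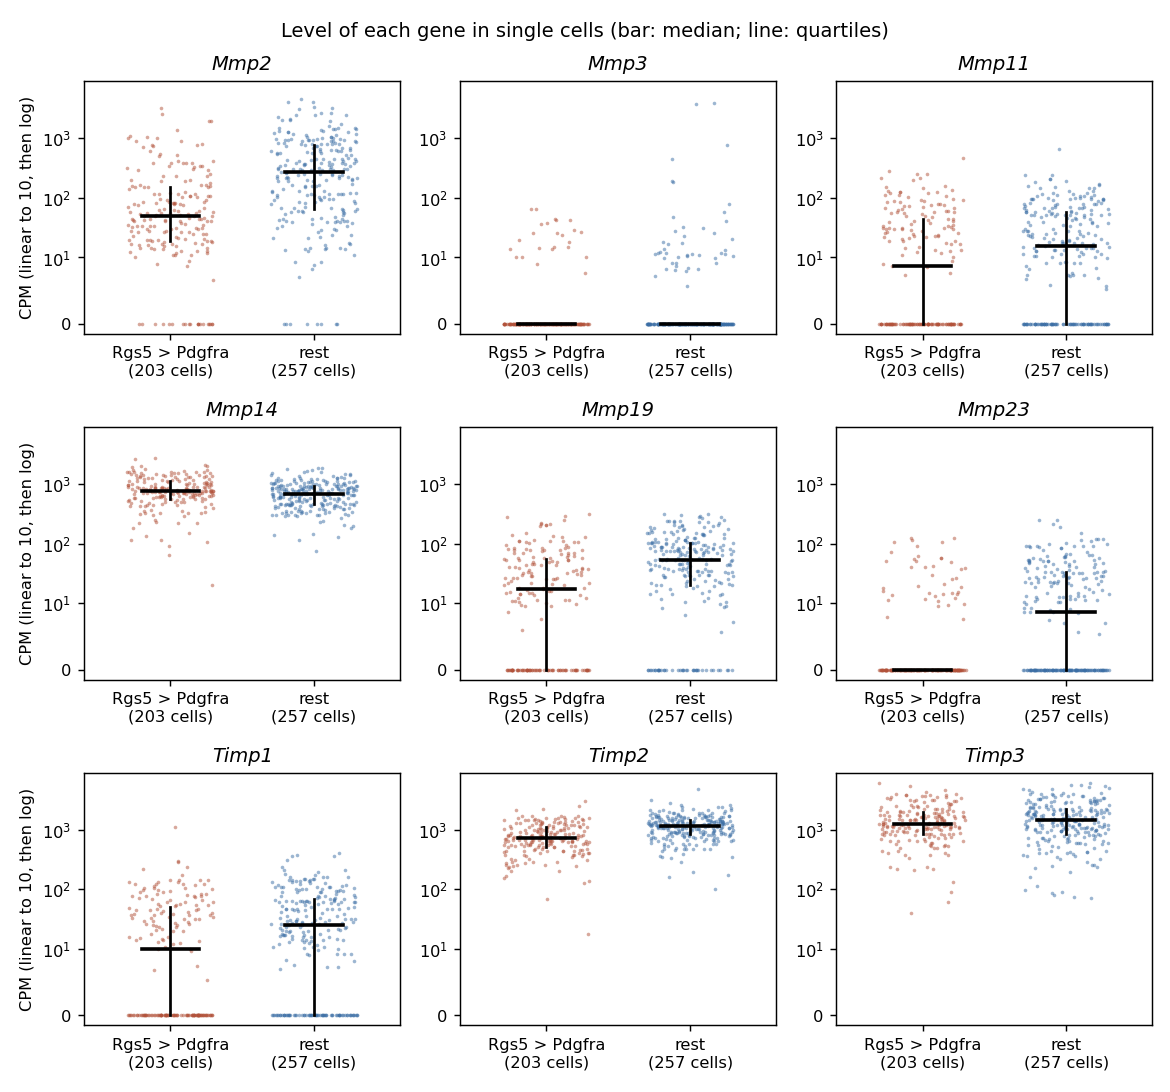
CPM of each gene in single cells (y, linear to 10 CPM and logarithmic above), with the Rgs5-above-Pdgfra cells on the left and the rest on the right; bars are medians and vertical lines quartiles. The median of Mmp2 is 49.1 CPM in the Rgs5-above-Pdgfra cells and 270 CPM in the rest, that of Mmp14 is 762 CPM in the Rgs5-above-Pdgfra cells and 688 CPM in the rest, and the 6 cells over 100 CPM of Mmp3 all lie on the right.

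Within the columns with Sftpc the same 3 genes were at least 2-fold lower, with folds of 0.370 for Mmp2, 0.116 for Mmp3 and 0.354 for Mmp23, where 4.74% of genes were at least 2-fold lower, 3.87% higher and 8.61% either. Within the columns low in Sftpc, Mmp2 had a fold of 0.495 and Mmp23 of 0.471 (41 counts in the Rgs5-above-Pdgfra cells and 98 in the rest), where 4.63% of genes were lower, 3.51% higher and 8.15% either. Without the highest cell of each gene these folds were 0.520 and 0.591, which do not reach 2-fold. In the low columns Mmp3 had 0 counts in the Rgs5-above-Pdgfra cells and 3 counts in the rest, too few for a fold. Timp1 had a fold of 1.10 (0.997 to 1.222) in the columns with Sftpc, which became 0.826 without its highest cell, and 0.627 in those low in it. Between the kinds themselves, the columns low in Sftpc had 0.294 CPM of Mmp3 (3 counts) and the others 24.3 CPM (786 counts), and none of the other 8 genes was 2-fold different. There 2.03% of genes were at least 2-fold lower, 0.251% higher and 2.28% either. The part of the columns in these results was not tested beyond these values.

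**Figure D3:**
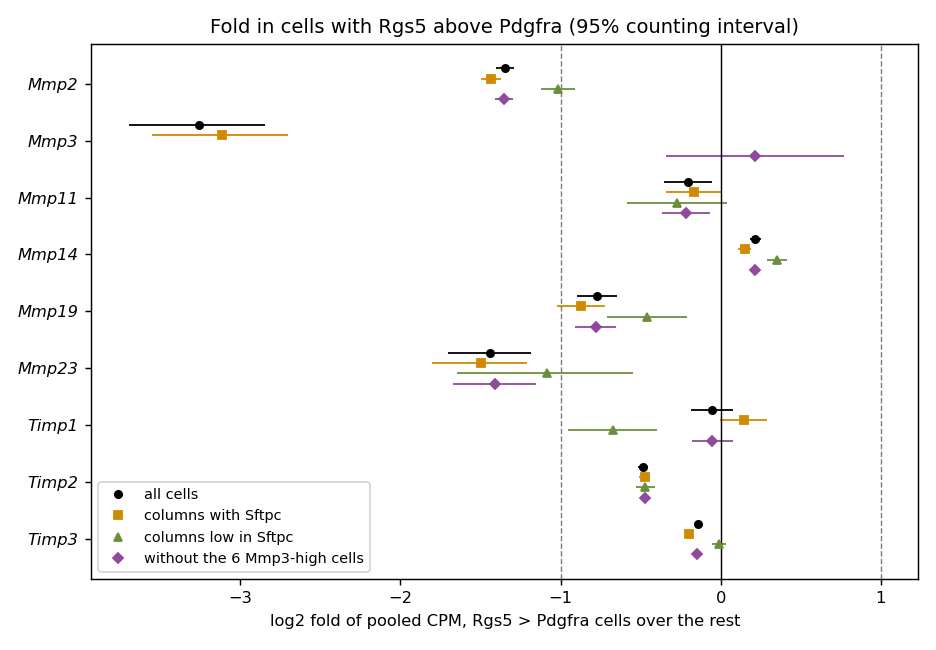
Log2 fold of pooled CPM in Rgs5-above-Pdgfra cells over the rest (x) for each gene (y), with 95% counting intervals, over all cells, within both kinds of column, and without the 6 Mmp3-high cells; dashed lines mark 2-fold. Mmp2 and Mmp23 lie left of the 2-fold line in all 4 settings, and Mmp3 lies at 0.22 without the Mmp3-high cells.

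Other genes around the proteases were read from lists, between the Rgs5-above-Pdgfra cells and the rest. Over all genes tested there, 4.67% were at least 2-fold lower, 3.75% higher and 8.42% either. The lists were chosen with earlier results of these data known, so no count below is read as a result about a list. Of 19 other metalloproteinases and inhibitors, 5 had at least 460 counts: Mmp28 was 6.20-fold higher in the Rgs5-above-Pdgfra cells (42.5 CPM against 6.86 CPM in the rest), and Mmp9, Mmp10 and Mmp13 were lower. Mmp9 had 37.2 CPM in the Rgs5-above-Pdgfra cells and 92.1 CPM in the rest, and Mmp10 had 2.83 CPM in the Rgs5-above-Pdgfra cells and 29.001 CPM in the rest. Mmp13 had 2.06 CPM in the Rgs5-above-Pdgfra cells and 26.4 CPM in the rest, and without its highest cell the fold was 0.516. The fifth, Reck, had a fold of 0.733. The median log2 fold of these 5 was -1.31. Mmp13 was among the 5 only through 1 cell, which held 574 of its 711 counts.

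Of 16 genes for activation, clearance and surface partners, 14 had at least 460 counts, 1 was higher and 3 were lower (median log2 fold -0.18). Over all genes 3.75% were higher and 4.67% lower. Plau, the urokinase that starts the plasmin cascade, had 11.9 CPM in the Rgs5-above-Pdgfra cells and 49.4 CPM in the rest. A2m, a trap for proteases, had 2.12 CPM in the Rgs5-above-Pdgfra cells and 31.5 CPM in the rest. Cav1, a caveolar protein, had a fold of 2.51, which became 1.82 without its highest cell. Furin, which cleaves proMMP14, had a fold of 1.15, and Lrp1, an endocytic receptor for proteases and their inhibitors, 0.796.

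Of 15 matrix substrates, 14 had at least 460 counts, 1 was higher and 3 were lower (median log2 fold -0.33). Here and for the next list, the shares over all genes were 3.75% higher and 4.67% lower. The chain of basement membrane collagen Col4a2 had 2231 CPM in the Rgs5-above-Pdgfra cells and 1106 CPM in the rest, a fold of 2.02 that was 1.98 within the columns low in Sftpc. The small proteoglycan Dcn (decorin) had 230 CPM in the Rgs5-above-Pdgfra cells and 1328 CPM in the rest, and the large proteoglycan Vcan (versican) 432.7 CPM in the Rgs5-above-Pdgfra cells and 1505 CPM in the rest. Tnc, tenascin C, had 446.2 CPM in the Rgs5-above-Pdgfra cells and 1458 CPM in the rest. Of 16 AP-1 and inflammatory genes, 13 had at least 460 counts, none was higher and 3 were lower (median log2 fold -0.65). The cytokine genes Lif and Il6 had folds of 0.197 and 0.376, and Ptgs2, cyclooxygenase 2, 0.368. Fos, a component of AP-1, was at 2188 CPM in the Rgs5-above-Pdgfra cells and 2058 CPM in the rest.

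Mmp3 was concentrated in 6 cells at 100 CPM or more, 1.30% of all cells (0.480 to 2.82%). Their levels were 3851, 3717, 771, 438.7, 194.4 and 185.8 CPM, the last of them from 13 counts. The next cells below the threshold had 78.6 and 65.4 CPM, and the threshold was set on Mmp3 itself. The 6 cells held 673 of the 789 Mmp3 counts (85.3%), and the highest 2 held 515 (65.3%). The other 64 cells with a count had at most 6, and 38 of them had 1. Pooled without the 6 cells, Mmp3 stood at 2.76 CPM.

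None of the 6 had Rgs5 above Pdgfra: a count of 0 among those cells allows a share of up to about 1.48%. None lay in the columns low in Sftpc, where a count of 0 allows up to about 2.36%. Both limits are approximate, 3 over the number of cells, and exact limits are higher. Their summed fibroblast markers had a median of 13810 CPM, against 12433 CPM in the other cells of the rest. Ptprc, Tyrobp, Fcer1g and Itgam of the leukocyte list, all 5 neutrophil markers, Krt8 and Cdh1 of the epithelial list, Cdh5 and Cldn5 of the endothelial list and Wt1 of the mesothelial list were at 0 in all 6 cells. The other 3 leukocyte, 4 epithelial, 3 endothelial and 4 mesothelial markers had counts in them. The sum of the leukocyte list had a median of 49.1 CPM in the 6 cells and 70.1 CPM in the other cells of the rest. The sum of the epithelial list had a median of 719 CPM in the 6 cells and 492 CPM in the other cells of the rest. For the endothelial list it was 14.8 CPM in the 6 cells and 0 CPM in the other cells of the rest, and for the mesothelial list 29.1 CPM in the 6 cells and 8.399 CPM in the other cells of the rest. The part of these markers in the values of the 6 cells was not tested.

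The 6 cells were not alike in the other proteases. The highest 2 had 1459 and 1110 CPM of Mmp2, while the other 4 had 39.5, 94.01, 209.9 and 57.2 CPM. The highest 2 had 84.8 and 245.2 CPM of Mmp23, while the other 4 had 19.8, 0, 0 and 0 CPM. For Mmp19 the highest 2 had 101.8 and 141.97 CPM and the other 4 had 29.7, 10.4, 38.9 and 0 CPM. So for these 3 enzymes the highest 2 lay above the other 4 without overlap. Timp2 was at 1679, 2607, 1592, 825, 925 and 3101 CPM in falling order of Mmp3, and Mmp14 at 1272, 283.9, 821, 1086, 342.1 and 543 CPM. Timp3 was at 1374, 594, 920, 1828, 2068 and 257.3 CPM, and Timp1 at 50.9, 90.3, 108.8, 10.4, 23.3 and 28.6 CPM. These inhibitors and Mmp14 overlapped between the highest 2 and the other 4. Mmp11 was at 50.9, 0, 0, 52.2, 0 and 14.3 CPM.

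Pooled over the 6 cells and set against all other cells, Mmp23 was 2.65-fold higher (1.72 to 3.92; 26 counts) and Mmp11 was lower, at a fold of 0.455 (0.208 to 0.865; 9 counts). That is 2 of 8 genes where 26.4% of all genes differed at least 2-fold (7.27% higher, 19.1% lower), a share near the background and no result about the family. Of the 26 Mmp23 counts, 24 were in the highest 2 cells. Timp2 had a fold of 1.58 (1.48 to 1.69), and Mmp2 one of 1.05. Against the other cells of the rest only Mmp11 passed, at 0.429, where 15.1% of genes were lower, 6.07% higher and 21.2% either. The highest 2 cells alone had folds of 3.24 for Mmp2, 2.09 for Mmp19, 9.55 for Mmp23 and 2.12 for Timp2, where 14.3% of genes were at least 2-fold higher, 25.6% lower and 39.8% either. The other 4 cells had folds of 0.286 for Mmp2, 0.408 for Mmp11, 0.381 for Mmp19 and 0.275 for Mmp23, where 20% of genes were at least 2-fold lower, 7.54% higher and 27.5% either. The split into 2 and 4 cells was made after their values were seen.

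Mmp10, a gene of the same cluster as Mmp3, had a count in 5 of the 6 cells, at 186.6, 232.3, 29.7, 10.4, 0 and 314.4 CPM in falling order of Mmp3. Over all cells, 70 had an Mmp3 count and 70 an Mmp10 count, and 23 had both. Mmp10 was counted in 32.9% of cells with Mmp3 and in 12.1% of the others, and after thinning in 34.04% of cells with Mmp3 and 11.4% of the others. The part of reads from the stretches both transcripts share was not tested. Mmp13, another gene of the cluster, had no count in the 6 cells. Mmp8, neutrophil collagenase, was at 375.7 and 371.6 CPM in the third and sixth of the 6 cells, which had no count of any neutrophil marker.

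The genes with the largest fold of mean CPM in the 6 cells were Shisa3 (51.8-fold), Cpxm2 (29.9), Chrdl1 (26.97), Gabra3 (26.2), Dpep1 (22.6), Ntrk2 (19.9), F3 (19.3), Gbp5 (17.8), Jph1 (16.2) and Abca8a (14.7). Chrdl1 encodes a BMP antagonist, F3 tissue factor and Ntrk2 a neurotrophin receptor. For all but Gbp5 the highest 2 cells held 76.5 to 98.8% of the counts in the 6 cells, and for Gbp5 19.05%. C3, complement component 3, was at 5377 and 6234 CPM in the highest 2 cells and at 0 to 7.77 CPM in the other 4. A cell outside the 6, with 65.4 CPM of Mmp3 and Rgs5 above Pdgfra, had 4002 CPM of C3. The spread of C3 over the remaining cells is not given here. C3 was chosen after its values were seen.

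**Figure D4:**
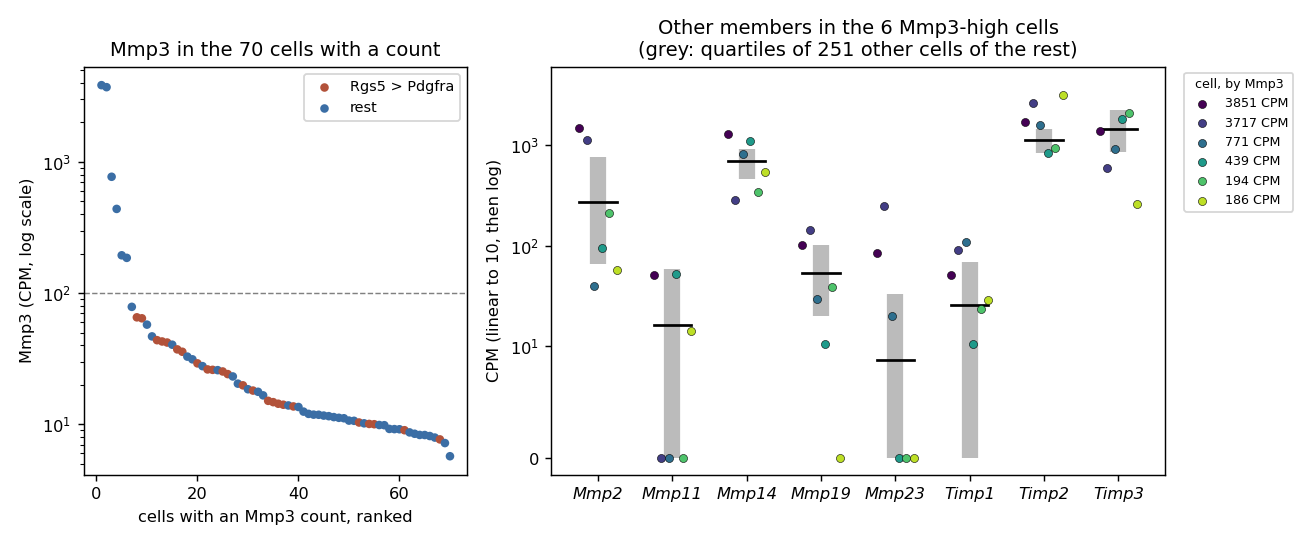
Left, Mmp3 CPM (log scale) in the 70 cells with a count, ranked, with the threshold of 100 CPM dashed. Right, CPM of the other 8 genes (linear to 10, then log) in the 6 Mmp3-high cells, each a point, over the quartiles (grey) and median (bar) of the other cells of the rest; the cells at 3851 and 3717 CPM of Mmp3 are the highest in Mmp2, Mmp19 and Mmp23.

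Correlations among the 9 genes over cells were weak. Spearman correlations of depth-scaled log counts over the 460 cells, which share 1 table and differ in depth, had a median of 0.0954 over 36 pairs and ran between -0.12 and 0.27. Positive values were found in 28 pairs, and 5 pairs reached 0.2: Mmp23 with Timp2 (0.27), Timp2 with Timp3 (0.22), Timp1 with Timp2 (0.22), Mmp2 with Mmp19 (0.22) and Mmp14 with Timp1 (0.21). Timp2, Timp3 and Mmp14 were counted in every cell, and the other genes of these pairs in fewer. Timp2 with Timp3 was at 0.18 in the Rgs5-above-Pdgfra cells and 0.24 in the rest. Values this weak are not read as a finding, and sparse counts limit the pairs with Mmp23, Timp1 and Mmp19.

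Of the 36 pairs, 2 reached 0.2 within the Rgs5-above-Pdgfra cells and 4 within the rest. Mmp2 with Mmp19 was at 0.15 in the Rgs5-above-Pdgfra cells and 0.0865 in the rest. Mmp2 with Timp3 was at 0.0588 in the Rgs5-above-Pdgfra cells and -0.34 in the rest, the value farthest from 0 in either set. It was at -0.25 in the columns low in Sftpc and -0.0623 in the columns with Sftpc. Mmp14 with Timp2 was at -0.070 in the Rgs5-above-Pdgfra cells and 0.25 in the rest. These differences were not tested.

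**Figure D5:**
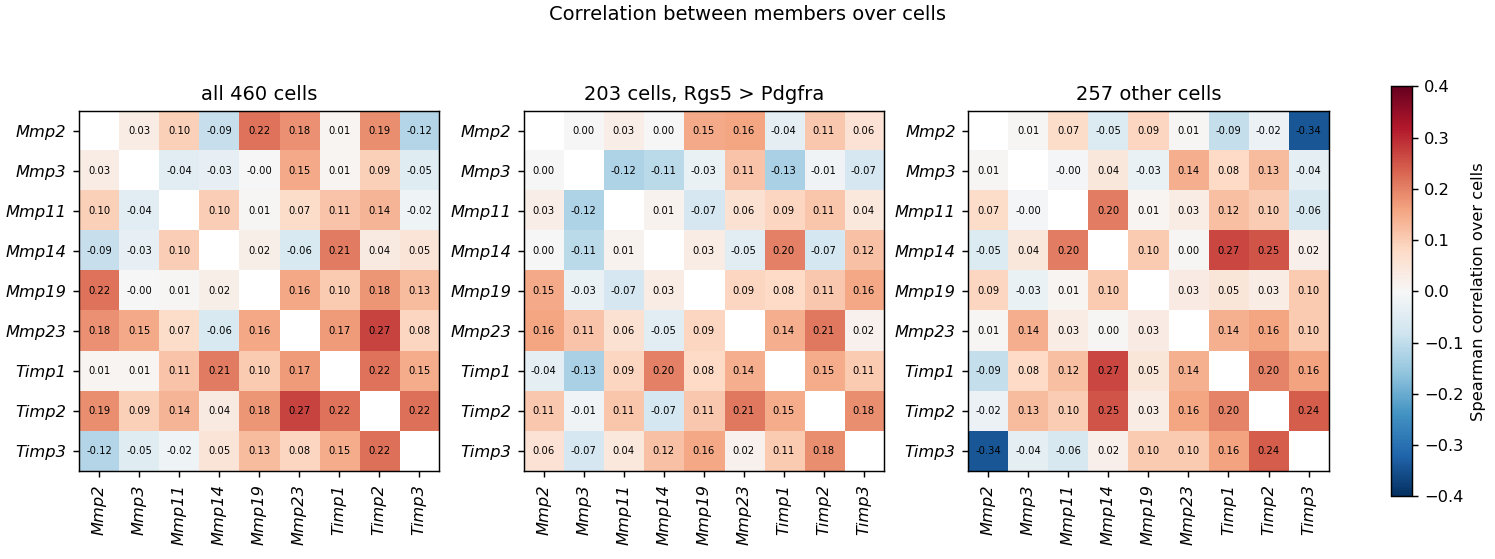
Spearman correlation between each pair of the 9 genes over all 460 cells, over the Rgs5-above-Pdgfra cells and over the rest, on a colour scale cut at -0.4 and 0.4. Nearly all squares are pale, and the darkest is Mmp2 with Timp3 in the rest (-0.34).

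Correlations with lineage and matrix genes are given for Mmp2, Mmp14, Timp2 and Timp3, and for Mmp11 none was farther from 0 than 0.0885 (Acta2). Mmp2 was at -0.42 with Rgs5, which made the split, and its Rgs5 value was -0.22 in the Rgs5-above-Pdgfra cells and -0.14 in the rest. With Pdgfrb, a receptor shared by fibroblasts and pericytes, Mmp2 was at -0.47. Its Pdgfrb value was -0.19 in the Rgs5-above-Pdgfra cells and -0.34 in the rest. Mmp14 went the other way, at 0.25 with Rgs5 and 0.39 with Pdgfrb, the second being 0.44 in the Rgs5-above-Pdgfra cells and 0.29 in the rest. The Rgs5 value of Mmp14 was 0.32 in the Rgs5-above-Pdgfra cells and 0.13 in the rest. Timp2 was at -0.43 with Rgs5, 0.46 with Dcn and 0.44 with Col1a1. The Rgs5 value of Timp2 was -0.40 in the Rgs5-above-Pdgfra cells and -0.11 in the rest, and its Dcn value was 0.22 in the Rgs5-above-Pdgfra cells and 0.42 in the rest. Timp3 with Dcn was at 0.0300 in the Rgs5-above-Pdgfra cells and 0.44 in the rest, and with Acta2, a gene of contractile cells, at 0.20 in the Rgs5-above-Pdgfra cells and 0.34 in the rest.

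The 3 closest genes to each of the 9, among 9068 genes counted in at least 25% of cells, were mostly matrix genes for Timp2: Prelp (0.59), Col1a2 (0.58) and Loxl1 (0.57), for a matrix proteoglycan, a collagen I chain and a collagen crosslinking enzyme. These held within both sets, Prelp at 0.55 in the Rgs5-above-Pdgfra cells and 0.54 in the rest. For Mmp14 they were Sparcl1 (0.47), Col15a1 (0.44) and Pdgfrb (0.39). For Mmp2 they were Clmp (0.48), Palld (0.46) and Cxcl14 (0.43), and Clmp was at 0.17 in the Rgs5-above-Pdgfra cells and 0.49 in the rest. The closest genes to Timp1 were Mgp (0.40), Serpina3n (0.36) and Serpina3e-ps (0.36), of which the last is a pseudogene that may take reads of its relatives. For Timp3 they were Syn3 (0.44), which shares exon bases with it, Ctgf (0.38) and Fgfr1 (0.37).

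Among the sparser enzymes, Mmp23 was closest to Efs (0.40), Pcdh7 (0.39) and Col1a2 (0.38), and Mmp19 to Chst15 (0.31), Pdgfra (0.31) and Serpina3n (0.30). Pdgfra made the split, and its value with Mmp19 was 0.19 in the Rgs5-above-Pdgfra cells and 0.084 in the rest. Mmp11 was closest to Sort1 (0.24), Cped1 (0.22) and Ephb3 (0.22). Mmp3 was closest to Apod (0.43), Dpep1 (0.29) and Abi3bp (0.27). The Apod value was 0.62 in the Rgs5-above-Pdgfra cells and 0.31 in the rest. The Rgs5-above-Pdgfra cells held none of the 6 Mmp3-high cells, and 24 of them had an Mmp3 count. The Apod value was 0.45 in the columns with Sftpc and 0.042 in those low in it, where Mmp3 had 3 counts.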

How the data were processed

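Single-cell RNA-seq gave 1 table of 460 cells. The authors deposited molecular barcode counts per gene, whole numbers that were not normalized. STAR, HTSeq and the mm10 build are named in the submitters' processing notes, and versions and the step from reads to barcode counts are not given in the sources used here. All 460 columns matched a sample title and were used. Where several genes carried 1 symbol (119 symbols), the most counted one was used. No doublet caller was run, and doublets were kept.

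Pooled CPM is summed counts over summed totals, with exact Poisson intervals. Folds have exact conditional intervals and shares Clopper-Pearson ones. A fold of 2 is called, and is read against genes with at least 460 counts. No fold is given where both sets hold 3 counts or fewer. Correlations used log1p of counts per 10000. A column counts as low in Sftpc when over 50% of its 20 nearest neighbours lie under 30 CPM. Lengths are union exons of GENCODE vM21, and 48058 of 48440 gene IDs matched. The fold step was tested on simulated data.

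The genes named are the 9 members, fixed lists (list genes past the fold and some others are named, except 1 that is not reported here), the 3 closest genes of each member and the 10 leading genes of the Mmp3-high cells. Leading genes were counted in 50% or more of those cells, with 1 CPM added, and neither rule took ribosomal, mitochondrial or unnamed genes. Members and lists were chosen with earlier results of these data known. Alternatives changed the split, scaling (scran 1.30.0, R 4.3.3), depth, thresholds, correlation and sets of cells. Calculations ran in Python 3.11.15 (scipy 1.17.1, numpy 2.4.6, pandas 2.3.3, matplotlib 3.10.9).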

Additional observations from a re-analysis of the deposited data

How the results depend on the processing

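Of the 9 genes, 3 were at least 2-fold different between the Rgs5-above-Pdgfra cells and the rest, and 2 to 4 were under the 9 alternatives. Shares over all genes are given for some of these alternatives only, and the others are not read against a background. It was 4 at 1.5-fold, where 16.8% of genes differed, and with no count minimum 19.8% of genes differed at least 2-fold. The log2 fold of Mmp3 reversed to 0.22 without the Mmp3-high cells. A split at 4 times gave Mmp2 and Mmp23 folds of 0.182 each. The number of Mmp3-high cells was 10 at 50 CPM and 0 in the columns low in Sftpc, so no fold could be computed there. The number of genes at least 2-fold different in these cells was 1 at 50 CPM, 1 at 200 CPM, 1 with the mean of single-cell CPM, 1 against other cells of the rest (21.2% of all genes), 4 without the 2 highest Mmp3 cells (27.5% of all genes) and 4 in those 2 alone (39.8% of all genes). The last 2 settings, the correlations within sets of cells and folds without a gene's highest cell were chosen after seeing the data. No share over all genes is given at 50 CPM, at 200 CPM or with the mean of single-cell CPM. No result about the family is read from those settings. Without the 2 highest cells the log2 fold of Mmp23 reversed to -1.86. Apart from settings named here, the cause of these moves was not tested. Of the correlations under alternatives, 30 moved by more than 0.1. Depth limits the sparse genes, since a count of 1 is worth over 10 CPM in a cell of median depth. No paired analysis was possible because the cells form 1 group.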
